A study of Rattus norvegicus with 36 samples.

Results

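The proteasome is the protease that degrades ubiquitin-tagged proteins, and the genes of its standing subunits were followed here in liver RNA across doses of a flame retardant. The members were taken by symbol. Each had to have a probe set to which the array annotation gave a single symbol that starts with Psma, Psmb, Psmc or Psmd and a digit, and the interferon-induced Psmb8, Psmb9 and Psmb10 were left out. This gave 34 of the 14217 genes with a probe set of their own, on 45 probe sets, and each gene was represented by its probe set of highest mean over the arrays. Psmc3ip met the letters of the rule but encodes a meiotic recombination factor, not a proteasome part, and is given apart. The other 33 genes were 13 core subunits (7 of the alpha ring, Psma1 to Psma7, and 6 of the beta ring, Psmb1 to Psmb5 and Psmb7), 6 ATPases of the base (Psmc1 to Psmc6), 3 base subunits without ATPase activity (Psmd1, Psmd2 and Psmd4), 8 lid subunits (Psmd3, Psmd6, Psmd7, Psmd8, Psmd11, Psmd12, Psmd13 and Psmd14) and 3 chaperones of base assembly (Psmd5, Psmd9 and Psmd10). The core, base and lid genes are the 30 subunits below. The catalytic subunit Psmb6 is not analysed here, because its probe set carries several symbols.

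The samples were livers of male Harlan Sprague Dawley rats, 7 weeks old at the start. They were given TBPH, which is bis(2-ethylhexyl) tetrabromophthalate and serves as a brominated flame retardant. It was gavaged in corn oil at 5 ml/kg on 5 days, and the left liver lobe was sampled 1 day after dosing ended. The vehicle group received corn oil alone. Of the 5 dosed groups, the highest received 706 mg/kg, the next 70.6 and 7.06 mg/kg, and the lowest 0.71 and 0.07 mg/kg. Each group holds 6 Affymetrix arrays, 36 in all, and every value is a log2 RMA value, so a difference of 1 is a doubling. The labels number the replicates without tying each to its own animal, and the p-values therefore rest on the spread among arrays, which may be partly technical.

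The proteasome has a barrel-shaped core and a regulatory particle that caps it. The core is built of outer alpha rings, which gate the entrance, and inner beta rings, which hold the catalytic subunits Psmb5 (chymotrypsin-like), Psmb6 (caspase-like) and Psmb7 (trypsin-like). In the cap, the base carries an ATPase ring that unfolds substrates and the ubiquitin receptor Psmd4, and the lid carries Psmd14, the enzyme that removes ubiquitin chains before a substrate enters. Subunit genes are known for shared transcriptional control, in which the factor NRF1 (gene Nfe2l1) raises many of them when proteasome activity falls.

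Because members varied together between arrays, their promoters were read for known motifs. RefSeq promoters (build GRCr8) were matched for 26 of the 30 subunits, and Psma7, Psmd6, Psmd12 and Psmd14 had no entry. The 250 bases before each start were searched on both strands, and the last 150 of them are printed, 5′ to 3′ in the direction of the gene, with motif matches in capitals. The motifs were the CCAAT box (CCAAT), the GC box (GGGCGG), an ETS site (CCGGAAG), the antioxidant response element core (TGACNNNGC), the nuclear respiratory factor core (GCGCA and GCGC with any base between them) and the TATA box (TATAAA). The 6 promoters shown are those of Psmb2 and Psmb5, whose transcripts followed the other subunits most closely, of the catalytic Psmb7, and of Psma3, Psmd11 and Psmc6, which followed them least on the probe sets used.
Psmb2: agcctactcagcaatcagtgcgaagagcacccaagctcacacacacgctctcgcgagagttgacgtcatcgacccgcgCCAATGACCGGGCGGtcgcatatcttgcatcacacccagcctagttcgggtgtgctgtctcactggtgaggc
Psmb5: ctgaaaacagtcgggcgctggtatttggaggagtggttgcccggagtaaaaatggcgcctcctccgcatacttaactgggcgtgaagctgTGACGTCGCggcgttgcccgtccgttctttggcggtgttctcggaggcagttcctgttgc
Psmb7: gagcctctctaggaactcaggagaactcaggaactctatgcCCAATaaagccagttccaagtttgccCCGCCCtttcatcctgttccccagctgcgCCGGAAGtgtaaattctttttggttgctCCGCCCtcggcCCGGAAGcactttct
Psma3: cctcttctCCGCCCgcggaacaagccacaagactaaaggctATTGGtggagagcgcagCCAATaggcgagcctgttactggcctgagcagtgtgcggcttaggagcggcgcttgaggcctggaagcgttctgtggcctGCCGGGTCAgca
Psmd11: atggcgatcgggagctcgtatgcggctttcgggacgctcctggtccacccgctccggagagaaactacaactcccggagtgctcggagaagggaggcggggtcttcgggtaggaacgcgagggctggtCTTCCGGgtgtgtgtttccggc
Psmc6: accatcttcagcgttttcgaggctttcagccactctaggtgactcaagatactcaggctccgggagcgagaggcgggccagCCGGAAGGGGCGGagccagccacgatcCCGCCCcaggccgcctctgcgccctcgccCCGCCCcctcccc
The Psmb2 stretch lay at chr5:144254908-144255057 on the forward strand. The Psmb5 stretch lay at chr15:32047380-32047529 on the reverse strand. The Psmb7 stretch lay at chr3:42827471-42827620 on the reverse strand. The Psma3 stretch lay at chr6:95219599-95219748 on the forward strand. The Psmd11 stretch lay at chr10:65932193-65932342 on the forward strand. The Psmc6 stretch lay at chr15:21022164-21022313 on the forward strand. Psmb2 and Psmb5 both held the antioxidant response element core. In Psmb2 that match overlapped a CCAAT box on its left and a GC box on its right, and in Psmb5 it was the sole match to any of these motifs. It was found in 4 of the 26 promoters (Psmb2, Psmb5, Psma3 and Psmd1), which is 15.4% against 10.1% of all 33469 promoters, and so also in Psma3, which followed the others least. The GC box was in 18 of 26 (69.2% against 30.5%), the CCAAT box in 14 (53.8% against 34.0%), the ETS site in 9 (34.6% against 7.27%), the nuclear respiratory factor core in 4 (15.4% against 3.75%) and the TATA box in 4 (15.4% against 12.9%). By class, the CCAAT box was in 9 of 12 core promoters, 3 of 9 base promoters and 2 of 5 lid promoters, and the GC box was in 10 of 12, 7 of 9 and 1 of 5. These are matches of letters in a window, and no match says only that the letters are not in it.

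All 34 genes had a mean above 5, where the median of all probe sets was 5.09, so no member was lost to a filter on dim probe sets. The alpha ring probe sets ran from 7.99 (Psma3) to 11.59 (Psma6) and the beta ring from 9.84 (Psmb7) to 11.76 (Psmb4). The ATPases ran from 9.36 (Psmc1) to 10.88 (Psmc2), the other base subunits from 8.76 (Psmd1) to 9.80 (Psmd2) and the lid from 8.39 (Psmd12) to 10.27 (Psmd11). Probe sets differ in how brightly they report a transcript, so these levels cannot be ordered as amounts of RNA, and core and lid are compared only in how they vary. The members varied little within a group. The median within-group SD of the 30 subunits was 0.093, against 0.15 over all probe sets, and 31 of the 33 genes lay below that figure. This comparison was not matched for brightness. The quietest was Psma1, an alpha ring subunit, with an SD of 0.064, and the most variable were Psmb7 with 0.19 and the lid subunit Psmd3 with 0.16.

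The tissue matched its label. The 7 hepatocyte markers measured ran from 9.32 (Tat) to 14.76 (Alb), and the 6 lymphocyte markers from 3.90 to 5.18. Markers of other cells reached 12.46 (Hbb, erythroid), 11.15 (Col3a1, stellate cell and fibroblast), 10.45 (Clec4f, Kupffer cell) and 9.89 (Lyve1, sinusoidal endothelium). The highest cholangiocyte marker was at 8.79 (Epcam) and the highest neutrophil marker at 5.62 (S100a9). The RNA control that reads GAPDH at its 3′ and 5′ ends, whose difference grows when RNA is degraded or labelled short, stood at 0.41 on replicate 5 of 70.6 mg/kg and 0.33 on replicate 4 of 0.07 mg/kg, while no other array exceeded 0.093.

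The first question was whether TBPH moved the subunits. No member passed at any dose, with limma and Benjamini-Hochberg adjustment over all probe sets at a threshold of 0.05. The same held for all 31042 probe sets at each of the 5 doses (0% called), for any difference among the 6 groups (0% called) and for a slope over dose rank (0% called). At an unadjusted limma p under 0.05, the 33 genes gave 2 at 70.6 mg/kg, where 5.24% of all probe sets reached it. They gave 0 at 706 and 7.06 mg/kg (3.48% and 3.48% of all) and 0 at 0.71 and 0.07 mg/kg (3.98% and 3.07% of all). They also gave 0 for any difference (2.54% of all) and 0 for the slope (4.16% of all). Where a p is given below for a single gene at 1 dose, it comes from the exact two-sided permutation test of 6 arrays against 6 over 924 splits and is not adjusted, while adjusted p-values come from limma. In bulk liver RNA, fewer cells of a type and less RNA per cell cannot be told apart.

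The intervals bounded how far a subunit could have moved. At 706 mg/kg the 95% interval of the difference from vehicle lay within 1.2-fold for 31 of the 33 genes, against 63.8% of all probe sets. At 70.6 and 7.06 mg/kg it did so for 29 and 32 genes, against 61.5% and 64.4%, and at 0.71 and 0.07 mg/kg for 32 and 32, against 63.2% and 65.8%. Psmb7 lay outside at every dose, with Psmd3 at 706 and 70.6 mg/kg and with Psmd11 and Psmd14 at 70.6 mg/kg. On its other bright probe set, Psmd11 differed by 0.0044 at 70.6 mg/kg (-0.08 to 0.09), within 1.2-fold. The median standard error of a member's difference was 0.059, against 0.084 over all probe sets. The 33 genes were all brighter than the median probe set, and these comparisons were not matched for brightness.

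**Figure D1:**
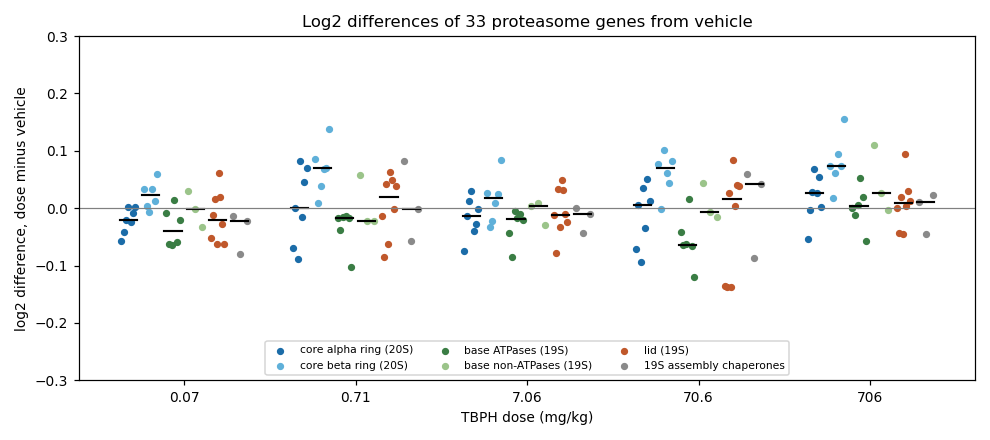
Log2 difference from the vehicle mean (vertical axis) for each of the 33 genes at each TBPH dose (horizontal axis), by class. No difference passed after adjustment over all probe sets, and at 706 mg/kg 25 of the 33 values lay above 0, where 48.4% of all probe sets did.

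Among the catalytic subunits, Psmb5 ran from 11.03 to 11.17 on the vehicle arrays (median 11.10). It ran from 11.00 to 11.24 (11.10) at 0.07 mg/kg, from 11.03 to 11.26 (11.19) at 0.71 and from 11.05 to 11.18 (11.12) at 7.06, then from 10.95 to 11.42 (11.09) at 70.6 and from 11.04 to 11.31 (11.18) at 706. Every dosed group overlapped vehicle, and the highest value, 11.42, was on the 70.6 mg/kg array with the GAPDH difference of 0.41. At 706 mg/kg, 4 of 6 arrays lay above all vehicle arrays, and the difference was 0.07 (95% interval -0.05 to 0.20, exact p = 0.115, adjusted p = 0.9995).

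Psmb7 had the widest spread of any member. Its lowest, median and highest values were 9.63, 9.69 and 10.02 on vehicle, 9.61, 9.80 and 10.03 at 0.07 mg/kg and 9.54, 9.90 and 10.09 at 0.71 mg/kg. They were 9.80, 9.84 and 9.85 at 7.06 mg/kg, 9.51, 9.82 and 10.12 at 70.6 mg/kg and 9.54, 9.92 and 10.17 at 706 mg/kg. The 7.06 mg/kg arrays were close together (SD 0.022) and the 70.6 mg/kg arrays far apart (SD 0.25), and all groups overlapped. The difference from vehicle was 0.16 at 706 mg/kg (-0.06 to 0.37, exact p = 0.165) and 0.14 at 0.71 mg/kg (-0.07 to 0.35, exact p = 0.212). With the GAPDH difference as a covariate, an alternative added after seeing the data, the 706 mg/kg value was 0.07.

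The smallest limma p-values belonged to lid subunits at 70.6 mg/kg. Psmd12, a scaffold subunit, ran from 8.35 to 8.55 on vehicle (median 8.47) and from 8.25 to 8.44 (8.29) at 70.6 mg/kg, and 5 of the 6 dosed arrays lay below every vehicle array. It differed by -0.14 (-0.26 to -0.01, exact p = 0.013, adjusted p = 0.921). At 706 mg/kg it lay between 8.29 and 8.56, and the difference was -0.04 (-0.17 to 0.08).

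Psmd14, the lid deubiquitinase, ran from 9.63 to 9.90 on vehicle (9.75) and from 9.52 to 9.67 (9.62) at 70.6 mg/kg, with 3 of 6 dosed arrays below all vehicle arrays. Its difference there was -0.14 (-0.26 to -0.01, exact p = 0.0195, adjusted p = 0.921). At 706 mg/kg the arrays spread from 9.55 to 9.85 around a difference of -0.04, and the groups overlapped at every dose. A further probe set of Psmd14, dimmer with a mean of 6.95, lay below vehicle by 0.27, 0.21, 0.24, 0.37 and 0.23 from the lowest dose to the highest, all without an unadjusted limma p under 0.05. A bright one with a mean of 9.13 differed by -0.02 at 70.6 mg/kg. All 5 doses share the vehicle arrays, so such repeats are not independent.

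**Figure D2:**
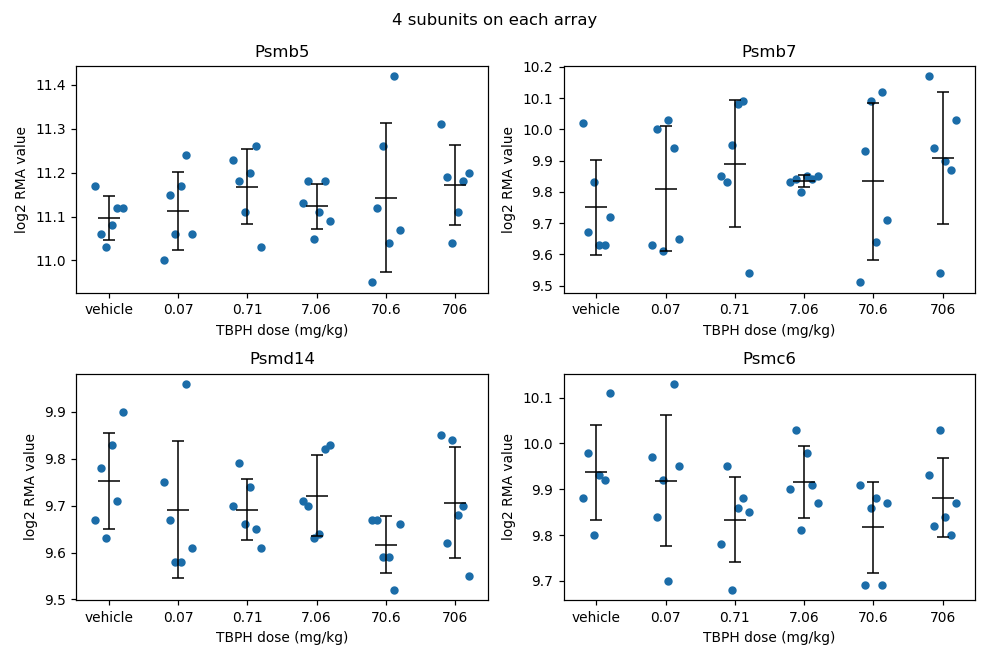
Log2 RMA value (vertical axis) of Psmb5, Psmb7, Psmd14 and Psmc6 on each array (points) by TBPH dose, with mean ± SD (n = 6 per group). The dosed groups overlap the vehicle arrays in every panel, and the Psmb7 values at 7.06 mg/kg lie within 9.80 to 9.85.

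Among the ATPases, Psmc2 had the smallest limma p of the members at 0.07 mg/kg (difference -0.06, exact p = 0.184) and at 7.06 mg/kg (-0.08, exact p = 0.0195, adjusted p = 0.9999). Its vehicle arrays ran from 10.88 to 10.97 and its 7.06 mg/kg arrays from 10.77 to 10.94. Psmc6 had it at 0.71 mg/kg (-0.10, exact p = 0.11), with vehicle at 9.80 to 10.11 and the dosed arrays at 9.68 to 9.95. Below vehicle lay 5, 6, 6, 5 and 2 of the 6 ATPases from the lowest dose to the highest, none with an unadjusted limma p under 0.05, and their medians were -0.04, -0.02, -0.02, -0.06 and 0.00.

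Psmd1, the large scaffold of the base, had the smallest limma p at 706 mg/kg. It ran from 8.66 to 8.81 on vehicle (8.72) and from 8.73 to 8.96 (8.81) at 706 mg/kg, and 3 of 6 dosed arrays lay above every vehicle array. The difference was 0.11 (-0.01 to 0.23, exact p = 0.0346, adjusted p = 0.9995). Psmd4, the ubiquitin receptor, ran from 9.02 to 9.30 on vehicle and from 9.06 to 9.38 at 706 mg/kg and differed by 0.00 (-0.13 to 0.12). Of the chaperones, Psmd5 stood among the 2 smallest limma p-values at 0.07 mg/kg (-0.08, exact p = 0.355), and so did the alpha ring subunit Psma1 at 0.71 mg/kg (-0.07, exact p = 0.0866) and 7.06 mg/kg (-0.07, exact p = 0.0649).

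Across the groups jointly, the smallest limma p-values for any difference were those of Psmd12, Psma3 and the lid subunit Psmd11, each with an adjusted p of 1. For the slope they were those of Psmd12 (-0.02 per dose step, 95% interval -0.04 to 0.00) and Psmd1 (0.02, 0.00 to 0.04), each with an adjusted p of 0.998. Psmc3ip, outside the proteasome, differed by 0.16 at 70.6 mg/kg (0.02 to 0.30, exact p = 0.0909, adjusted p = 0.921).

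Core and lid were then set side by side. From the lowest dose to the highest, 7, 10, 6, 9 and 11 of the 13 core subunits lay above vehicle, and 3, 4, 3, 5 and 6 of the 8 lid subunits, where 48.1%, 47.9%, 48.1%, 48.9% and 48.4% of all probe sets did. The core medians were 0.00, 0.05, 0.00, 0.03 and 0.05 and the lid medians -0.02, 0.02, -0.01, 0.02 and 0.01, where the median of all probe sets was 0.00 at each dose. The beta ring lay highest among the classes at 706 mg/kg, with a median of 0.07 and all 6 above vehicle. The GAPDH difference, which the beta ring genes other than Psmb3 followed with r of 0.5 or more, ran from -0.18 to 0.03 on the vehicle arrays and from -0.16 to 0.09 on those of 706 mg/kg. With it as a covariate, the core median at 706 mg/kg was 0.02, Psmb5 stood at 0.03 and Psmb7 at 0.07. The core median at 70.6 mg/kg turned to -0.02 with the GAPDH difference as a covariate and to -0.01 without replicate 5 of that group. The lid median turned to -0.02 at 70.6 mg/kg in both cases and at 706 mg/kg to -0.01 with the covariate and to -0.01 without replicate 1, so no direction is read from these medians.

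The mean of the core subunits ran from 10.60 to 10.70 on the vehicle arrays and the mean of the lid subunits from 9.31 to 9.39. At 706 mg/kg they ran from 10.62 to 10.79 and from 9.27 to 9.50, and both overlapped vehicle. The vehicle arrays lay closest together, with SDs of 0.033 for core and 0.028 for lid, against dosed SDs of 0.041 to 0.11 and 0.045 to 0.092. The core mean minus the lid mean, whose absolute size depends on the probe sets, was 1.29 ± 0.031 on vehicle (SD, n = 6). It was 1.30 ± 0.040, 1.32 ± 0.019, 1.29 ± 0.018, 1.34 ± 0.080 and 1.33 ± 0.035 from the lowest dose to the highest, and every dosed group overlapped vehicle in it.

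**Figure D3:**
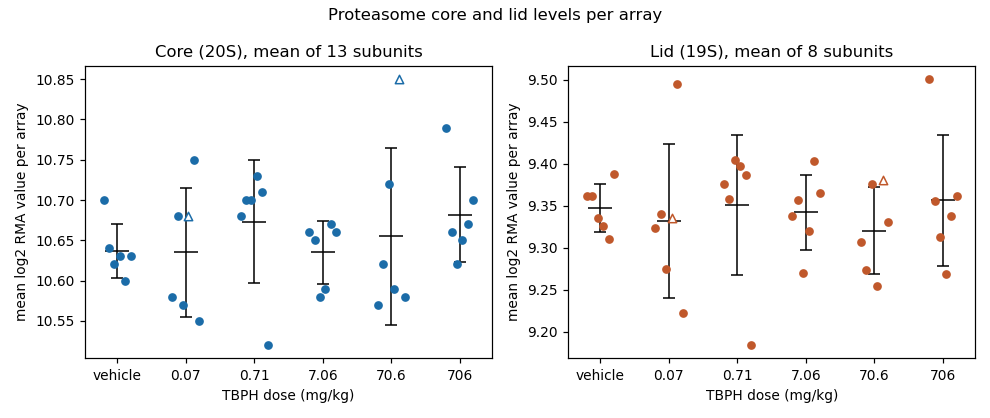
Mean log2 RMA value of the 13 core and the 8 lid subunits (vertical axes) on each array by TBPH dose, with mean ± SD (n = 6 per group); open triangles mark the 2 arrays with the largest GAPDH 3′ minus 5′ difference. Replicate 5 of 70.6 mg/kg has the highest core mean, 10.85, and replicate 6 of 0.71 mg/kg the lowest values in both panels, 10.52 and 9.18.

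The subunits varied together from array to array inside the dose groups. With group means subtracted, the 435 pairs of the 30 subunits had a mean Pearson r of 0.36 over the 36 arrays, and 34.0% of them reached 0.5. Over all gene pairs the mean was 0.0086 with 2.16% at 0.5 or more, and over pairs of genes with a mean of 8 or more it was 0.070 with 6.97%. The 46 cytosolic ribosomal protein genes (0.39) and the 34 genes of respiratory complex I (0.41) had means of like size, and their mean r with the subunits was 0.12 and 0.25. These correlations are descriptions, since the points share arrays and RNA quality.

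Over all arrays and on the probe sets used, the mean r was higher in the core than in the lid, a contrast that was not tested. The mean r was 0.48 over the 78 core pairs (57.7% at 0.5 or more), 0.34 over the 28 lid pairs (25%) and 0.39 over the 104 pairs of a core and a lid subunit (46.2%). With the GAPDH difference taken out, the core and lid values were 0.43 and 0.39, and the alpha ring alone stood at 0.40. Without the 2 arrays of large GAPDH difference the core and lid values were 0.44 and 0.40. Within single groups the lid value was the higher at 0.71 mg/kg (0.67 against 0.52) and at 706 mg/kg (0.41 against 0.38). On vehicle and at the remaining doses the core value was the higher. With every probe set of a gene used in place of the brightest one, the core, lid and core with lid values were 0.41, 0.18 and 0.23. The probe sets this adds are unlike: in the core those of Psmb5 alone, and in the lid those of Psmd7, Psmd11 and Psmd14. These values are therefore not a like comparison of core and lid. Inside the core the beta ring had the highest mean, with a mean of 0.71 over 15 pairs, from 0.45 (Psmb3 with Psmb7) to 0.92, against 0.40 in the alpha ring and 0.44 between the rings. The ATPases had a mean of 0.44 among themselves but 0.26 with the core and 0.26 with the lid. The core and lid means followed each other with r = 0.81 and rho = 0.83, with r = 0.87 without the 2 arrays of large GAPDH difference and r = 0.71 without the 4 arrays farthest from their groups described next.

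The coordination leaned on 4 arrays. The arrays farthest from their group on the mean of the 30 subunits were replicate 5 of 0.07 mg/kg (0.13 above its group), replicate 1 of 706 mg/kg (0.12 above), replicate 5 of 70.6 mg/kg (0.11 above) and replicate 6 of 0.71 mg/kg (-0.13, below). Without them the mean r was 0.24 in the core, 0.11 in the lid, 0.20 between core and lid and 0.55 in the beta ring, where leaving arrays out by this mean tends to lower r by its own construction. Group by group, each over 6 arrays, the core r was 0.16 on vehicle and 0.67, 0.52, 0.45, 0.52 and 0.38 from the lowest dose to the highest, and the lid r was -0.01 on vehicle and 0.45, 0.67, 0.24, 0.09 and 0.41. The vehicle group, which spread least, had the lowest core value, and its difference from the dosed groups was not tested.

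**Figure D4:**
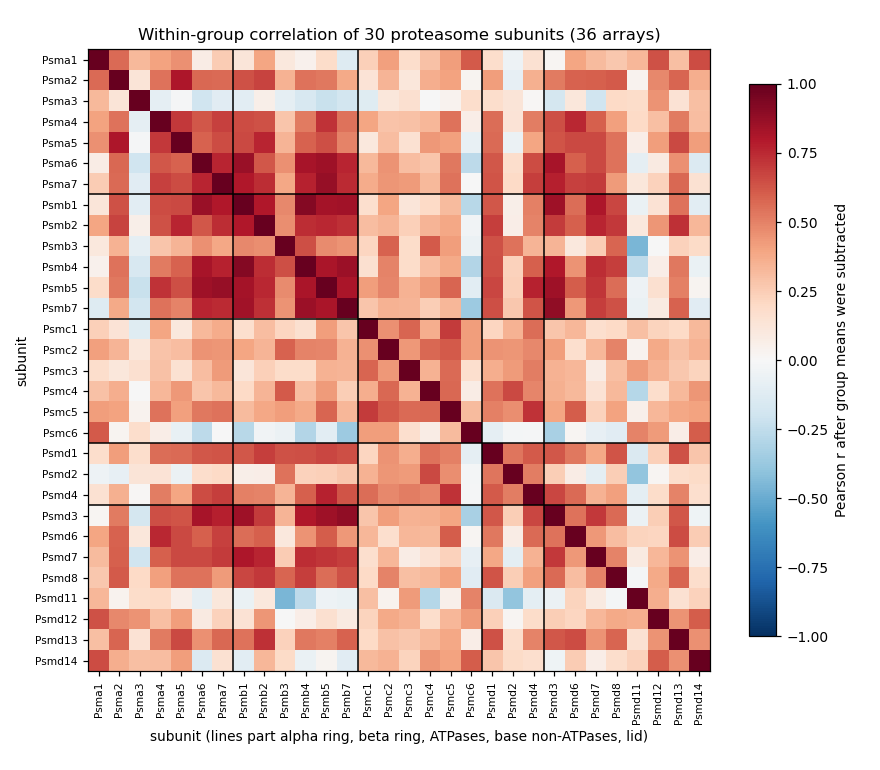
Pearson r between each pair of the 30 subunits over 36 arrays after group means were subtracted (colour, from -1 to 1), ordered by class. The beta ring has the highest mean r of the classes (0.71). Psma3, Psmc6 and Psmd11 have the lowest mean r with the other subunits, though each rises with some of them, as Psmc6 with Psma1 (0.61).

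The highest pair was Psmb1 and Psmb4, both non-catalytic subunits of the beta ring, with r = 0.92 and rho = 0.90. Next came Psmb7 with Psmd3 (r = 0.89, rho = 0.90) and Psma7 with Psmb5 (r = 0.87, rho = 0.82), and the lowest was Psmb3 with Psmd11 (r = -0.46). With the GAPDH difference taken out these became 0.83, 0.73, 0.78 and -0.43. They are the extremes of 435 pairs and were not tested. The members that followed the other subunits most closely were Psmb2 (mean r 0.50), Psmb5 (0.50) and Psma7 (0.50), and those that did so least were Psma3 (0.035), Psmd11 (0.049) and Psmc6 (0.061). The highest r with a single subunit was 0.45 for Psma3 (with Psmd12), 0.50 for Psmd11 (with Psmc6) and 0.61 for Psmc6 (with Psma1). For other probe sets of Psmc6 and Psmd11 a different measure was taken, r with the mean of the 30 subunits. It was 0.34 and 0.46 for those of Psmc6 and 0.23 for the other bright one of Psmd11. That mean includes the probe set used for each gene, so these values cannot be set against the mean r above. In all, 18 of the 33 genes had a mean of 0.4 or more and 4 a mean under 0.1, the fourth being the chaperone Psmd10.

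Many of the members that followed the others also varied with the RNA control. Pearson r with the GAPDH difference was 0.5 or more for 10 of the 33 genes, reaching 0.79 in Psmd3, 0.79 in Psmb1 and 0.74 in Psmb7, and was below 0 for 11, down to -0.49 in Psmc6. Without the 2 arrays of large difference Psmc6 stood at -0.27, and Psmd11 turned from -0.25 to 0.29, Psmc3 from -0.07 to 0.19, Psmc1 from -0.10 to 0.14 and Psmd12 from -0.03 to 0.13. The mean of the 30 subunits had r = 0.51 with it, and 0.47 without the 2 arrays of large difference. Replicate 4 of 0.07 mg/kg, the other such array, lay only 0.019 above its group on that mean. With the GAPDH difference taken out of every gene, the mean r was 0.43 in the core, 0.39 in the lid and 0.62 in the beta ring.

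**Figure D5:**
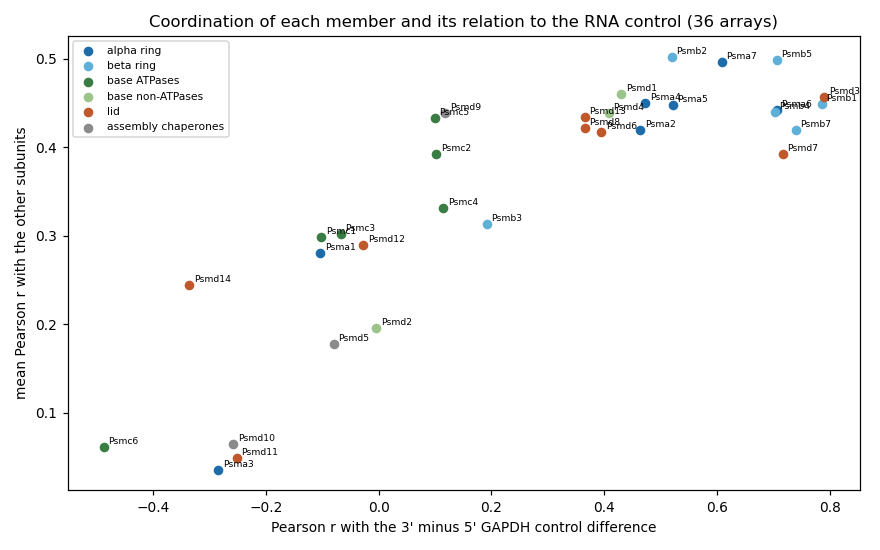
Mean Pearson r of each of the 33 genes with the 30 subunits (vertical axis) against its Pearson r with the GAPDH 3′ minus 5′ difference (horizontal axis), over 36 arrays, coloured by class. Psmc6, Psma3, Psmd11 and Psmd10 lie at the lower left and the beta ring, except Psmb3, at the upper right.

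A family of 10 relations of Psmb5 was tested by permuting arrays within groups 100000 times, two-sided, with Benjamini-Hochberg adjustment over the 10. Psmb5 followed Psma7 (r = 0.87, permutation p = 1e-05, the smallest these permutations can give, adjusted p = 3.333e-05). It also followed Psmb7 (r = 0.81) and Psmd4 (r = 0.77) with the same p, and Psmb2 (r = 0.75, adjusted permutation p = 0.0001). On the probe sets used, it did not pass with Psmc6 (r = -0.11, permutation p = 0.565) or Psmd14 (r = 0.03, permutation p = 0.862). Their other probe sets were not tested with Psmb5. Psmb2 and Psma7 are among the 3 most coordinated members and Psmc6 among the 3 least. That ranking uses these same values, r with Psmb5 included, so the results for these genes are not independent of it.

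Among the regulators of that family, Psmb5 followed Nfe2l1, the gene of NRF1, with r = 0.61 and rho = 0.66 (permutation p = 0.00017 and 0.00013, adjusted p = 0.00034 and 0.00026), and r was 0.63 without the 2 arrays farthest out on Psmb5. With the related Nfe2l2 r was -0.06 (permutation p = 0.704). For the immunoproteasome subunit Psmb8 r was 0.46 (adjusted permutation p = 0.0321) and for the activator gene Psme2 0.50 (adjusted permutation p = 0.0222). By rank the first passed (rho = 0.40, adjusted permutation p = 0.047) and the second did not (rho = 0.38, adjusted permutation p = 0.0562), and without the 2 farthest arrays r was 0.32 and 0.28. The GAPDH difference had r = 0.71 with Psmb5 and r = 0.69 with Nfe2l1, and with it taken out of both genes, a step added after seeing the data, their r was 0.24. The relations of Psmb5 with Psma7, Psmd4, Psmb2 and Psmb7 then stood at 0.78, 0.74, 0.63 and 0.61, those with Psme2 and Psmb8 at 0.52 and 0.43, and those with Psmd14 and Psmc6 at 0.40 and 0.38.

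The rest of the pathway was read from lists, none with a gene past the adjusted threshold at any dose. For the counts below, 48.1%, 47.9%, 48.1%, 48.9% and 48.4% of all probe sets lay above vehicle from the lowest dose to the highest. Of the 5 immunoproteasome and activator genes, 4, 5, 1, 5 and 5 lay above vehicle from the lowest dose to the highest, with medians of 0.03, 0.18, -0.05, 0.24 and 0.13, so the order of the values did not follow the dose. At 70.6 mg/kg 2 of them, Psme1 (0.14) and Psmb9 (0.57), had an unadjusted limma p under 0.05, each with an adjusted p of 0.921. Of all probe sets, 5.24% had such an unadjusted p at 70.6 mg/kg. The mean of the 3 neutrophil markers was 4.57 there against 4.38 on vehicle. Of these markers 2 lay above vehicle, by up to 0.35, and 1 lay below (-0.10). They were dim, with means from 3.44 to 5.62, where the median of all probe sets was 5.09. Of the 6 Kupffer cell and macrophage markers, 6, 6, 1, 6 and 4 lay above vehicle from the lowest dose to the highest. Their medians were 0.08, 0.12, -0.15, 0.07 and 0.05, and none had an unadjusted limma p under 0.05. The part of neutrophils, Kupffer cells or macrophages in the values of Psme1 and Psmb9 was not tested. At 706 mg/kg Psme1, an activator subunit, had a difference of 0.13 (0.01 to 0.25, exact p = 0.0325, adjusted p = 0.9995). The vehicle SD of Psmb8 was 0.67 and that of Psmb9 0.53, against 0.049 for Psmb5, so on these arrays the induced subunits spread more widely than that constitutive one. Of the 5 core assembly factors 3, 5, 3, 4 and 4 lay above vehicle, with the smallest limma p at 706 mg/kg for Psmg2 (0.06).

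Of the 9 other activators, inhibitors and partners 4, 5, 6, 3 and 6 lay above vehicle from the lowest dose to the highest, and the smallest limma p at 706 mg/kg was that of the activator Psme4 (0.07). Of the 6 shuttle receptors, which carry ubiquitinated proteins, 4, 2, 3, 2 and 4 did so, with the smallest limma p at 706 mg/kg for Ubqln4 (0.15). The 5 genes of the unfoldase p97 and its cofactors lay below vehicle in 5, 3, 4, 5 and 2 cases from the lowest dose to the highest, with medians of -0.03, -0.02, -0.04, -0.08 and 0.00. At the highest dose the smallest limma p was that of Ufd1 (-0.05).

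In the NRF1 list 8, 6, 8, 6 and 7 of 10 genes lay above vehicle from the lowest dose to the highest, with medians of 0.03, 0.01, 0.06, 0.02 and 0.12. An unadjusted limma p under 0.05 was reached by Mafg at 0.71 mg/kg (0.18) and by Mafg (0.20) and Mafk (0.27), both partner genes, at 70.6 mg/kg. Of all probe sets, 3.98% and 5.24% reached it at these doses. The smallest limma p at 706 mg/kg was that of Mafg, a partner of NRF1 on DNA (difference 0.14, exact p = 0.147), and Nfe2l1 differed by 0.15 (-0.10 to 0.39) and Nfe2l2 by 0.03 (-0.21 to 0.27). Of the 9 chaperone genes 2, 4, 4, 2 and 5 lay above vehicle, with the smallest limma p at 706 mg/kg for Dnajb1 (0.15), and Uba1, the enzyme that activates ubiquitin, differed by 0.07.

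Of the pathway genes, those that followed the mean of the 30 subunits most closely across arrays were the inhibitor gene Psmf1 (r = 0.72), the p97 cofactor Nploc4 (0.70), the ubiquitin receptor Adrm1 (0.67), the lid-associated Sem1 (0.66), Ubqln4 (0.64), Psmg1 (0.62), Ube3c (0.61), Uba1 (0.60), Psmg4 (0.57) and, after these, Nfe2l1 (0.56). Nfe2l2 stood at 0.01, and Maf (-0.56) and Zfand5 (-0.54) ran the other way. Among all genes other than the 30 subunits, 1011 (7.13%) had an r of 0.5 or more with that mean, some of them genes of these lists. Outside the proteasome lists, the 10 closest were Flad1 (0.82), Ift20 (0.81), Tmem126a (0.81), Timmdc1 (0.79), Bscl2 (0.79), Ssr2 (0.78), Dnajb2 (0.78), Trir (0.78), Gadd45gip1 (0.77) and Cltb (0.77), over the 36 arrays. Without the 4 arrays farthest from their groups, the values of these 10 ran from 0.57 (Ssr2) to 0.75 (Dnajb2).

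For the 7 members with several probe sets, agreement was uneven. For Psmc6 the probe set used had r = 0.62 and 0.60 with the other pair, for Psmd14 0.52 and 0.75, and for Psmd11 0.41 with its other bright one. For Psmd7, bright on both probe sets (means 9.46 and 9.25), r was 0.16. Which probe set is read thus matters for this gene, and may matter for Psmc6 and Psmd11. The remaining ones, for Psmb5, Psmc4, Psmd9 and Psmd11, were dim, with means from 3.36 to 4.60 and r from -0.01 to 0.32.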

How the data were processed

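Liver RNA was hybridised to Affymetrix expression arrays, 6 per group. The table the authors deposited gives each probe set 1 log2 RMA value per array, from 1.86 to 14.77. Per the submitters' processing notes, RMA was run through the affy package. Versions and a genome build are not given in the sources used here. RMA normalizes arrays to 1 distribution, so a shift shared by most genes would not be seen. The table has 31099 probe sets, and its 57 array controls were dropped. A single symbol was given for 20826 probe sets, several for 436 and none for 9780, and 20758 matched a current RefSeq gene.

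A linear model with 1 mean per group was fitted to all 36 arrays in limma (version 3.58.1, R 4.3.3), with 30 residual degrees of freedom, two-sided tests and Benjamini-Hochberg adjustment over 31042 probe sets. R/maanova, the tool of the design text, was replaced by limma here. The fit was tested on simulated data. Correlations and permutations used Python 3.11.15 with scipy 1.17.1, and figures matplotlib 3.10.9. Arrays give no depth, and their number limits the precision. The members, lists and tests were chosen with earlier results of these data known. Named genes were the catalytic subunits, Psmd4, Psmd14, Psma7, the smallest p-values of each comparison, the 3 most and 3 least coordinated members, 1 gene per pathway list with Nfe2l1 and Nfe2l2, and the 10 closest outside genes. Other genes were named after their values were seen. Alternatives covered leaving out each array, a replicate block, normalization, probe set choice and Spearman correlation. The GAPDH covariate, the first principal component and the fit without 4 arrays were added after seeing the data.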

Additional observations from a re-analysis of the deposited data

Results flagged for a closer look

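Over 16 genes and class means, 96 groups of 6 arrays were examined for a single array whose gap to its neighbour took more of the group's range than Dixon's 95% critical value, and 6 were found, where chance gives about 1 in 20. Replicate 6 of 0.71 mg/kg was low in the core mean (10.52, next 10.68), the lid mean (9.18, next 9.36) and Psmb2 (10.86, next 11.06). Replicate 5 of 0.07 mg/kg was high in Psma1 (10.69, next 10.54). On vehicle, replicate 1 was high in the core mean (10.70, next 10.64) and replicate 3 low in Psmd4 (9.02, next 9.19).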

How the results depend on the processing

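The count of members past the adjusted threshold was 0 at each dose, for any difference and for the slope, under every alternative run, each of the 36 arrays left out included. The mean core r was 0.42 to 0.51 with each array left out, the lid r 0.26 to 0.38 and the core with lid r 0.34 to 0.41. Without the 3 highest and the 1 lowest arrays, chosen after seeing the data, core r moved to 0.2407 and core with lid r to 0.1974. Under the other alternatives core r ran from 0.39 to 0.57. With all probe sets of each gene the lid r was 0.18 and the core with lid r 0.23. With the replicate number as a block the core r was 0.46, the lid r 0.32 and the core with lid r 0.37, and the counts stayed at 0. No sign was seen that the replicate numbers pair the arrays, though these values cannot exclude a pairing. The correlation of deviations between arrays of 1 number ran from -0.41 to 0.27. Its mean was -0.016, against 0.003 between arrays of different numbers, and 4 of the 36 arrays correlated best with an array of their own number. The core median at 70.6 mg/kg ran from -0.01 to 0.05 with each array left out. With 6 arrays per group, changes under about the interval widths given could not be told from 0.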
